A study of Sus scrofa with 2 samples.

Results

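The genes described here are the oxygen-responsive transcription factors HIF1A and EPAS1, the prolyl hydroxylases that mark them for removal, and targets of these factors in blood vessels and growth control. They were taken from the deposited tables by gene symbol and by the wording of the deposited protein description. This gave 11 of the 12535 transcript entries with a read in either library, and the entry that RefSeq names DDIT4 was added after the tables were opened, because its description spells the protein name without the hyphen the search required. The 12 entries belong to 9 genes, namely HIF1A, EPAS1, EGLN1, EGLN2, EGLN3, VEGFA, VEGFB, ADM and DDIT4. EGLN2 and VEGFB entered through their descriptions: VEGFB was deposited as LOC100521837 and described as a VEGF A-like protein, while RefSeq gives the same gene number the name VEGFB. No entry matched the mitophagy receptor BNIP3 or the heme oxygenase HMOX1, so neither is described.

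RNA of the biceps femoris, a skeletal muscle of the hind limb, was taken on Day 1 after birth from cloned pigs made by somatic cell nuclear transfer and delivered by caesarean section. The abnormal cloned group was 1 pool of equal amounts of RNA from 3 piglets labelled as developmental failure, with macroglossia, an umbilical defect and difficulty standing or walking. The normal cloned group was 1 pool of piglets labelled normal, 4 of them in the study's methods and 3 in the sample labels. All 3 abnormal and 2 of the normal piglets came from embryonic fibroblasts of one male Large White pig and the remaining normal piglets from another male's ear fibroblasts, so that donor and phenotype cannot be told apart for part of the contrast, and both groups were clones.

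Under normal oxygen, the EGLN enzymes hydroxylate the alpha subunits of the hypoxia-inducible factors (HIFs), which lets the VHL ubiquitin ligase bind and destroy them. When oxygen is short, HIF1A and EPAS1 persist, pair with ARNT and switch on genes for vessel growth, glycolysis and the slowing of protein synthesis. EGLN3, VEGFA, ADM and DDIT4 are themselves HIF targets, so that their transcripts are often read as a sign of hypoxia, whereas HIF activity itself is set mainly at the protein level. In muscle the pathway is known for coupling capillary supply and the use of glucose to oxygen demand.

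For each entry the number of uniquely mapped reads and the RPKM were used, a level that divides the reads by transcript length in kb and by the library total in M reads. The library totals were 6.38 M (abnormal) and 6.52 M (normal), and the detection floor, taken as 3 reads, was 0.470 and 0.460 RPM (reads per M reads). Each group had 1 library, so no difference could be checked against replicates, and the Audic-Claverie test used here (both sides) compares the libraries, not the conditions. An entry was called at a false discovery rate (FDR, Benjamini-Hochberg over all entries) of at most 0.001 with an RPKM ratio, abnormal over normal, of at least 1 in size on the log2 scale. Intervals of RPKM are exact 95% Poisson intervals and those of log2 ratios are 95% Wilson intervals; both cover counting error only. Mitochondrially encoded transcripts took 36.0% of the abnormal and 46.1% of the normal library, and the median log2 ratio over the 7493 entries with at least 10 reads in both libraries was 0.36. Log2 ratios of the hypoxia regulators and targets are therefore also given relative to that median, after rescaling the abnormal library. For the other genes named below this is given in part. The rescaling shifts every log2 ratio by −0.36. Skeletal muscle fibre markers, of which 6 of 8 had an entry, were abundant and summed to 89696 RPKM in the abnormal and 85664 RPKM in the normal library. Slow muscle fibre markers (4 of 6 with an entry, all 4 called lower) summed to 1922 against 16162 RPKM; the part of fibre type in the results below was not tested. In pooled bulk tissue, fewer cells of a type and less RNA per cell cannot be told apart.

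None of the 12 entries was called, against 13.5% of all entries. Counted by direction, 0 were called higher, where 12% of all entries were, and 0 were called lower, where 1.45% were. In 9 entries both libraries held at least 10 reads, and of these 7 were higher in the abnormal and 2 in the normal group by RPKM, where 68.7% of all such entries were higher in the abnormal group. Their median log2 ratio was 0.32, beside 0.36 over all entries, and it was −0.04 after rescaling to that median. The entries ran from −0.67 for VEGFB to 0.81 for DDIT4. Without the minimum of 1 on the log2 ratio, DDIT4 passed the FDR as higher and VEGFB as lower, where 23.2% of all entries passed. An unadjusted p under 0.05 was reached by 4 entries, VEGFB, DDIT4, EGLN1 and ADM, where 40.3% of all entries reached it. Fisher's exact test and edgeR's exact test with an assumed variation also called none of the 12. Both kept the minimum of 1, which no entry with a log2 ratio reached, so neither test could have called these entries. On the FDR alone, DDIT4 and VEGFB still passed with Fisher's exact test. With edgeR's assumed variation of 0.4 or 0.2, neither passed.

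**Figure D1:**
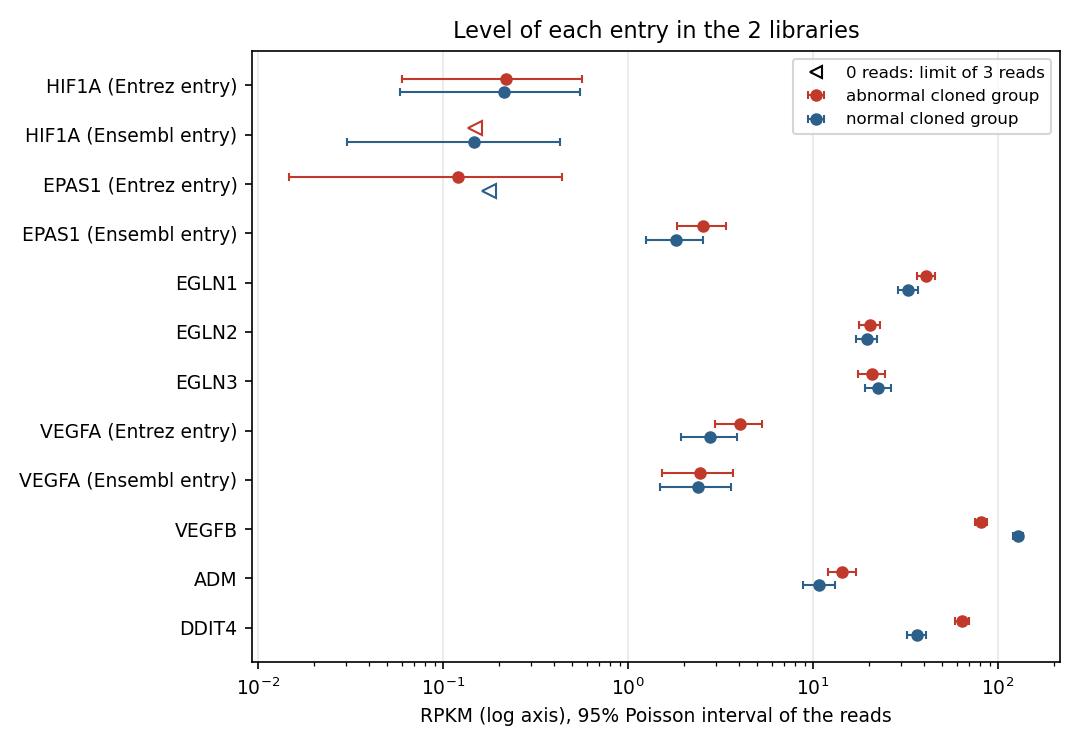
RPKM of each of the 12 entries (log axis) in the library of the abnormal (red) and the normal (blue) cloned group, with exact 95% Poisson intervals as bars; open triangles mark 0 reads, drawn at the level of 3 reads. VEGFB and DDIT4 are the entries whose intervals in the 2 libraries lie apart, in opposite directions, while the HIF1A and EPAS1 entries lie at the bottom of the scale.

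The levels spanned a wide range, from VEGFB at 81.0 RPKM in the abnormal and 128.7 RPKM in the normal library down to HIF1A at 0.219 and 0.215 RPKM. The order by RPKM was VEGFB, DDIT4 and EGLN1, then EGLN3 and EGLN2, then ADM, VEGFA (by its Entrez entry), EPAS1 and HIF1A in both libraries. VEGFA and EPAS1 overlapped in their counting intervals. EGLN2 and EGLN3 did not differ beyond their counting intervals in either library. DDIT4 and EGLN1 overlapped in the normal library, at 36.4 RPKM (32.4 to 40.8) and 32.7 RPKM (28.9 to 37.0), but not in the abnormal library, at 63.6 RPKM (58.2 to 69.4) and 40.9 RPKM (36.5 to 45.6). The plot of levels by entry shows this spread.

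HIF1A, the oxygen-regulated subunit of HIF-1, was at the edge of detection. Its Entrez entry (gene 396696, Sscrofa9 chromosome 1, 199777989 to 199826919, plus strand, transcript length 2859 bases) had 4 reads in each library. Its Ensembl entry (ENSSSCG00000005096, 199605043 to 199827355) had 0 and 3 reads, at or under the floor in both, so that no fold is given. The floor of 3 reads was 0.165 RPKM in the abnormal and 0.161 RPKM in the normal library at the length of the Entrez entry. The log2 ratio of the Entrez entry was 0.03 (−1.84 to 1.90, FDR 1) and −0.33 after rescaling, and with the reads of both entries added, 4 against 7, it was −0.78 (−2.45 to 0.90). With so few unique reads, a difference of HIF1A in either direction was not detectable.

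EPAS1, also called HIF-2 alpha and known from endothelium, had 45 reads in the abnormal pool against 33 in the normal pool on its Ensembl entry (ENSSSCG00000008443, chromosome 3, 87502103 to 87601420, plus strand, 2788 bases), or 2.53 RPKM (1.85 to 3.39) and 1.82 RPKM (1.25 to 2.55). The intervals of the libraries overlapped and the log2 ratio was 0.48 (−0.16 to 1.12, FDR 0.355), and 0.12 after rescaling. Its Entrez entry (gene 100037272) had 2 and 0 reads, and the sum over both entries gave 0.54 (−0.10 to 1.18).

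The levels of HIF1A, EPAS1 and VEGFA are uncertain, because each of these genes is listed under 2 entries, an Entrez and an Ensembl one, whose shorter span lies to 100% within the longer. A read that matches both entries has no unique place, and only uniquely mapped reads were deposited; the share of reads lost in this way was not tested. In all, 432 entries shared an Ensembl gene with another entry, 6 of them among the 12 described here. Coverage, the percent of the transcript that the deposited tables give as covered by reads, was low for EPAS1. The 45 reads of the EPAS1 Ensembl entry in the abnormal library covered 8.14% of the transcript, or 227 bases, and the 33 reads in the normal library covered 9.18%, or 256 bases. For comparison, 343 entries that were alone in their Ensembl gene and had 30 to 60 reads over 2000 to 3500 bases in the abnormal library were covered to a median of 48.6% (5th to 95th percentile 18.8% to 64.4%), and 10 entries that shared their gene to a median of 25.8%. By this measure the EPAS1 reads fell on a small stretch of the transcript in both libraries.

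**Figure D2:**
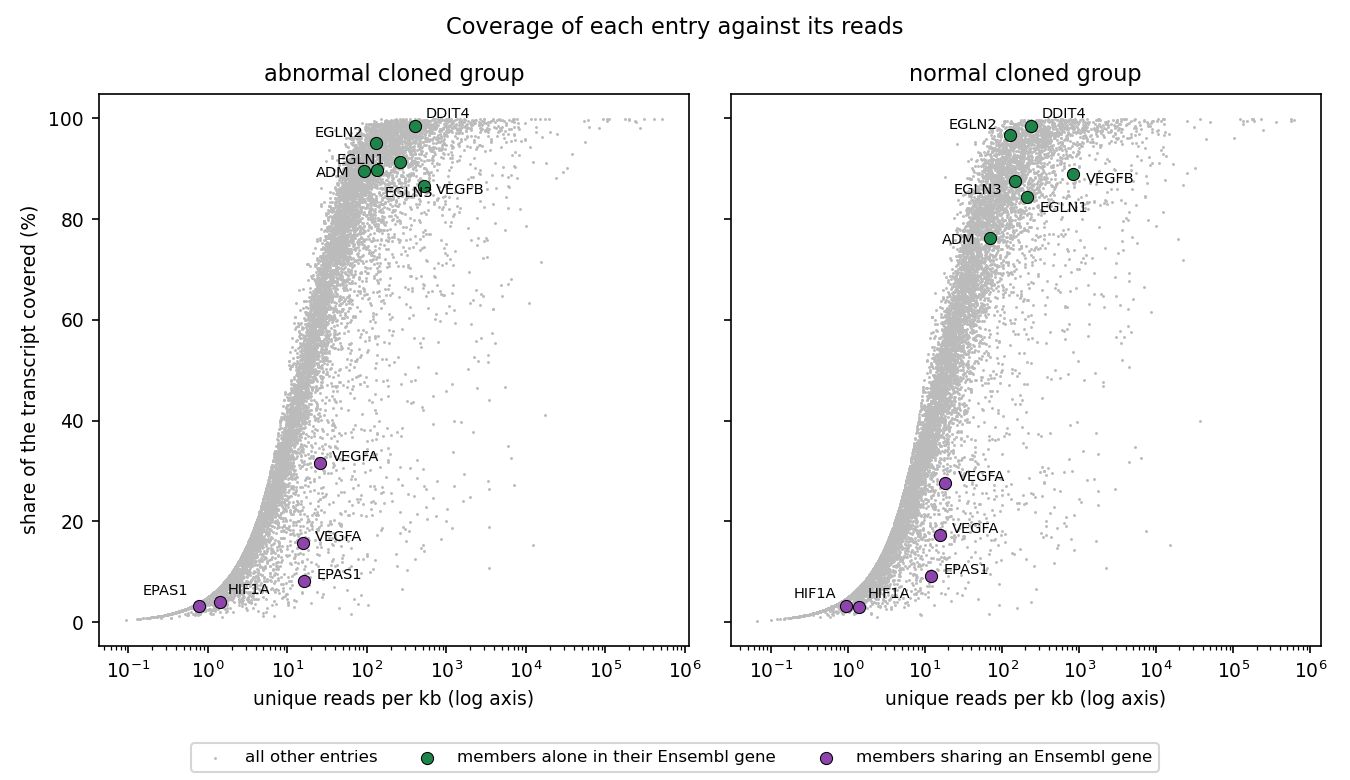
Percent of the transcript covered against unique reads per kb (log axis) for every entry with reads, in the abnormal (left) and the normal (right) cloned group; grey points are all other entries, green points the members alone in their Ensembl gene and purple points the members that share it. The EPAS1 Ensembl entry (8.14% and 9.18%) and the VEGFA Ensembl entry (15.77% and 17.26%) lie below the main band in both panels, whereas EGLN1, EGLN2, EGLN3, ADM, DDIT4 and VEGFB have 76.22% or more covered.

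The oxygen sensors EGLN1, EGLN2 and EGLN3, the prolyl hydroxylases also called PHD2, PHD1 and PHD3, were well covered, and none of the 3 was called. EGLN1, the main HIF hydroxylase in most tissues (gene 100153461, chromosome 14, 61452314 to 61504003, plus strand, 1205 bases), had 314 reads in the abnormal pool against 257 in the normal pool. Its log2 ratio of 0.32 (0.08 to 0.56, FDR 0.0289) was close to the median of all entries, and it was −0.04 after rescaling, so that its direction depended on the scaling. EGLN2 (gene 100523673, chromosome 6, 33669446 to 33677194, minus strand, 1802 bases) had 233 and 229 reads, or 20.3 RPKM (17.8 to 23.1) and 19.5 RPKM (17.1 to 22.2). Its log2 ratio was 0.06 (−0.21 to 0.32, FDR 0.875), and −0.30 after rescaling.

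EGLN3, the member of the family whose transcript responds most to HIF (ENSSSCG00000001963, chromosome 7, 71790521 to 71816367, plus strand, 1040 bases), had 138 reads in the abnormal pool against 152 in the normal pool. These were 20.8 RPKM (17.5 to 24.6) and 22.4 RPKM (19.0 to 26.3), with a log2 ratio of −0.11 (−0.44 to 0.22, FDR 0.717) and −0.47 after rescaling. The upper bound of this interval leaves a rise of the log2 ratio by 0.22 within counting error. Within a library the ratio of 2 entries needs no scaling to totals; the pairs given here and below were chosen with their values known. The ratio of EGLN1 to EGLN3 in RPKM was 1.96 in the abnormal against 1.46 in the normal library, a log2 difference of 0.43 (0.02 to 0.84), whose lower bound lies near 0. These ratios carry no correction for transcript length. With such a correction, described below, the log2 ratios of EGLN1 and EGLN3 were 0.07 and −0.27, which lie closer together. No interval was computed for that difference. The ratio of EGLN1 to EGLN2 was 2.02 and 1.68, a log2 difference of 0.26 (−0.09 to 0.62), whose interval includes 0.

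VEGFB, a ligand of the receptor FLT1 linked to fatty acid uptake in muscle and not to the classical hypoxic response, was the most abundant of the 12 entries (the entry LOC100521837, chromosome 2, 6257340 to 6425983, minus strand, 1299 bases). It had 671 reads in the abnormal pool against 1089 in the normal pool, or 81.0 RPKM (75.0 to 87.4) and 128.7 RPKM (121 to 137), so that the abnormal group stood at 0.630 times the normal level. Its log2 ratio of −0.67 (−0.81 to −0.53, FDR 2.07e-20) did not reach the minimum of 1, and after rescaling to the median it was −1.03 and VEGFB was called lower, where 3.97% of all entries were. The reads covered 86.61% and 88.91% of the transcript, but the entry spans 168644 bases of Sscrofa9, a stretch inside which 6 other entries start and end.

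VEGFA, the principal angiogenic HIF target, had few reads on both of its entries. The Entrez entry (gene 397157, chromosome 7, 45212174 to 45226738, plus strand, 1875 bases) had 48 reads in the abnormal pool against 34 in the normal pool, 4.01 RPKM (2.96 to 5.32) and 2.78 RPKM (1.93 to 3.89), with a log2 ratio of 0.53 (−0.10 to 1.16, FDR 0.265). After rescaling this ratio was 0.17. The Ensembl entry (ENSSSCG00000001695, 45219286 to 45223784, 1414 bases) had 22 and 22 reads, a log2 ratio of 0.03 (−0.81 to 0.87, FDR 1) and −0.33 after rescaling. Together the entries had 70 and 56 reads, a log2 ratio of 0.35 (−0.15 to 0.86). Coverage was 31.63% and 27.57% on the Entrez entry and 15.77% and 17.26% on the Ensembl entry. In the abnormal library the median was 55.1% (5th to 95th percentile 23.7% to 76.6%) over 911 entries alone in their gene with 20 to 60 reads and 1200 to 2200 bases, a range that includes the Entrez entry and not the Ensembl entry, and 23.5% over 28 entries that shared it.

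Among the 5 VEGF ligands, a set put together after their values were seen, VEGFB held 85.1% of the summed RPKM in the abnormal against 88.5% in the normal library, and VEGFA, with both entries added, 6.78% and 3.56%. The ratio of VEGFB to the VEGFA Entrez entry was 20.2 in the abnormal against 46.2 in the normal library, a log2 difference of −1.20 (−1.84 to −0.55). This rests on the VEGFA entry with the higher log2 ratio, 0.53. The Ensembl entry, at 0.03, would give a difference smaller in size. Reads that match both VEGFA entries are not counted. The shares and this ratio are therefore uncertain, by an amount that was not tested. The ratio of VEGFB to VEGFC, a ligand of lymphatic vessels, was 18.7 and 20.1, a log2 difference of −0.10 (−0.69 to 0.48).

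ADM, the vasodilator peptide adrenomedullin (gene 397195, chromosome 2, 45375345 to 45377567, minus strand, 1417 bases), had 130 reads in the abnormal pool against 100 in the normal pool, or 14.4 RPKM (12.02 to 17.1) and 10.8 RPKM (8.81 to 13.2). The intervals of the levels overlapped. Its log2 ratio was 0.41 (0.03 to 0.78, FDR 0.0973) and 0.05 after rescaling.

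DDIT4, also called REDD1, restrains the growth kinase complex mTORC1 through TSC2 and is induced by hypoxia as well as by glucocorticoids and energy stress (gene 100153821, chromosome 14, 78345537 to 78347197, plus strand, 1252 bases). It had 508 reads in the abnormal pool against 297 in the normal pool, or 63.6 RPKM and 36.4 RPKM, and 98.48% of the transcript was covered in both. It was 1.75 times as high in the abnormal group, with a log2 ratio of 0.81 (0.60 to 1.01, FDR 1.15e-13), which did not reach the minimum of 1, and 0.45 after rescaling. DDIT4 was thus the entry with the highest log2 ratio of the 12, and VEGFB the one with the lowest. Their ratio, DDIT4 over VEGFB, was 0.786 in the abnormal against 0.283 in the normal library, a log2 difference of 1.47 (1.22 to 1.72) that does not depend on the library totals. Because the pair was picked as the highest and lowest of the 12, a large difference was fixed in advance. The interval does not allow for this choice.

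**Figure D3:**
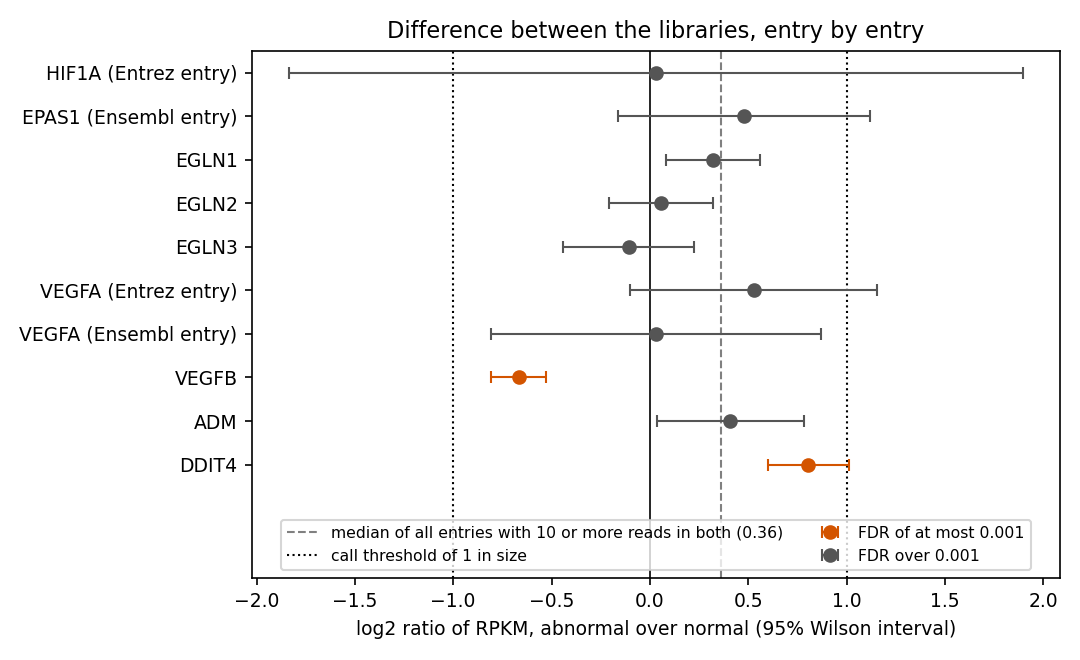
RPKM ratio (log2, abnormal over normal) of the 10 entries with more than 3 reads in at least 1 library, with 95% Wilson intervals; orange marks an FDR of at most 0.001, dotted lines the minimum of 1 in size and the dashed line the median of all entries, 0.36. DDIT4 (0.81) and VEGFB (−0.67) pass the FDR on opposite sides, and the other 8 do not pass it.

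The wider pathway was described with 122 other genes in 10 lists, of which 97 had an entry, 107 entries in all. Of these, 26 were called higher, where 12% of all entries were, 2 were called lower, where 1.45% were, and 79 were not called. The median log2 ratio of the 82 entries with at least 10 reads in both libraries was 0.71, beside 0.36 over all entries and 0.32 over the 9 entries described above; it was 0.35 after rescaling and 0.19 after a correction for transcript length (the length correction) that was added after the data were seen. After rescaling to the median, 15 were called higher, where 6.48% of all entries were, and 4 lower, where 3.97% were. The lists were chosen with earlier results of these data known, and the counts are a description. Beside the counts of each list below stand the same shares of all entries, 12% called higher and 1.45% lower.

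Of the 12 entries of HIF subunits and partners, 4 were called higher and 0 lower, with a median of 1.10 over the 10 with enough reads. ARNT, the constitutive beta subunit that both HIF1A and EPAS1 need, had 148 against 58 reads, a log2 ratio of 1.38 (0.95 to 1.82, FDR 9.8e-10), and it was still called after rescaling to the median ratio, but not with TMM factors (0.99) or the length correction (0.93). The co-activator CREBBP had 361 against 172 reads (log2 ratio 1.10), and the chaperones HSP90AB1 and HSP90AA1, which hold HIF1A in its folded state among many clients, had log2 ratios of 1.09 and 1.07. These 3 calls were lost after rescaling, and with the length correction 0 of the 12 entries were called higher, where 764 of all 12535 entries were. HIF3A, an alpha subunit with splice forms that inhibit the others, ran the other way, with 30 against 63 reads, a log2 ratio of −1.04 (−1.66 to −0.42, FDR 0.00333); it was not called, and was called lower after rescaling. EP300, the paralog of CREBBP, had 479 against 260 reads, a log2 ratio of 0.91 (0.69 to 1.13, FDR 8.13e-16), short of the minimum of 1.

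In the list of oxygen sensors and HIF turnover, 1 of 6 entries was called higher and 0 lower, with a median of 0.20. PTGES3, the HSP90 co-chaperone p23, had 763 against 277 reads, a log2 ratio of 1.49 (1.29 to 1.69, FDR 1.1e-53). OS9, described as a partner of HIF1A and the EGLN enzymes, had 435 reads in each library and a log2 ratio of 0.03, and −0.33 after rescaling. The VHL complex subunit TCEB2 (elongin B) had 544 against 670 reads, a log2 ratio of −0.27 (−0.43 to −0.11, FDR 0.00447). Of the 5 entries with at least 10 reads in both libraries, 4 lay above 0 and 1 below.

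Of the 8 entries of VEGF ligands and receptors, 1 was called higher and 0 lower, with a median of 0.18. The call was NRP1, a co-receptor of VEGFA, with 165 against 49 reads, a log2 ratio of 1.78 (1.32 to 2.24, FDR 2.66e-15). The receptors FLT1, with 107 against 63 reads, and KDR, with 297 against 181 reads, had log2 ratios of 0.80 (FDR 0.00224) and 0.75 (FDR 2.41e-07) without being called. These were 0.44 and 0.39 after rescaling, and 0.44 and 0.0251 with the length correction. The ratios to VEGFB that follow carry no length correction, and KDR has 4275 bases against 1299 for VEGFB. The RPKM ratio of FLT1 to VEGFB was 0.117 in the abnormal against 0.0426 in the normal library, a log2 difference of 1.46 (0.99 to 1.93), and that of KDR to VEGFB was 0.134 and 0.0505, a difference of 1.41 (1.11 to 1.71). Endothelial cell markers, 9 of 10 with an entry, summed to 126 RPKM in the abnormal and 136 RPKM in the normal library. None of these 9 was called and none was at 0; 3 were higher (FLT1, KDR and VWF) and 6 lower, among them PECAM1 with 627 against 699 reads. The part of endothelial content in the values of EPAS1, VEGFB and ADM was not tested.

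Of 3 entries of the adrenomedullin system, 1 was called higher and 0 lower. This was the receptor CALCRL, with 26 against 2 reads, a log2 ratio of 3.73 (1.80 to 5.66, FDR 1.35e-05); it was singled out after its values were seen, as its normal count lies under 10. The receptor partners RAMP1 and RAMP2, which turn CALCRL into a receptor for calcitonin gene-related peptide or for adrenomedullin, had 1391 against 1934 and 544 against 928 reads. Their log2 ratios were −0.44 (FDR 1.76e-17) and −0.74 (FDR 8.49e-21), neither of them called, and RAMP2 was called lower after rescaling. The RPKM ratio of ADM to RAMP2 was 0.134 in the abnormal against 0.0604 in the normal library, a log2 difference of 1.15 (0.74 to 1.55). The receptor and its partners thus had log2 ratios of opposite sign.

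In the list of vascular targets, 1 of 11 entries was called higher and 0 lower, with a median of −0.10. TFRC, the transferrin receptor for iron uptake, had 788 against 259 reads, a log2 ratio of 1.64 (1.43 to 1.84, FDR 2.59e-63). The chemokine CXCL12, with 208 against 190 reads, and the angiopoietin receptor TEK, with 75 against 82 reads, had log2 ratios of 0.16 and −0.10, and that of CXCL12 was −0.20 after rescaling.

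BNIP3 itself had no entry. Among the 9 entries of its family and of mitophagy, 1 was called higher and 0 lower, with a median of 0.46. MAP1LC3B, a protein of the autophagosome membrane, had 470 against 226 reads, a log2 ratio of 1.09 (0.86 to 1.32, FDR 1.58e-20), a call lost after rescaling. The mitophagy kinase PINK1 had 786 against 583 reads, a log2 ratio of 0.46 (0.31 to 0.62, FDR 3.47e-08), and the mitophagy receptor FUNDC1 106 against 118 reads and −0.12 (−0.50 to 0.25). After rescaling these ratios were 0.10 and −0.48, and with the length correction 0.00654 and −0.38.

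In heme degradation and iron storage, 2 of 6 entries were called higher and 1 lower, with a median of 0.12. HMOX2, the constitutive heme oxygenase, had 1034 against 470 reads, a log2 ratio of 1.17 (1.01 to 1.33, FDR 6.45e-50), not called after rescaling. BACH1, the repressor of HMOX1, had 60 against 7 reads, a log2 ratio of 3.13 (2.03 to 4.23, FDR 7.46e-11), and it was singled out after its values were seen. BLVRA, the biliverdin reductase that acts after heme oxygenase, was called lower, with 37 against 98 reads, a log2 ratio of −1.37 (−1.92 to −0.83, FDR 1.3e-06). The ferritin light chain FTL, with 2075 against 3030 reads, and NFE2L2, an activator of HMOX1, with 851 against 518 reads, had log2 ratios of −0.52 and 0.75 and were not called. Red blood cell markers, 5 of 8 with an entry, summed to 1823 RPKM in the abnormal and 2723 RPKM in the normal library; their part in these values was not tested.

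Of the 11 entries around DDIT4 and the mTORC1 brake, 3 were called higher and 0 lower, with a median of 0.93. SESN1, a stress-induced inhibitor of mTORC1, had 1065 against 261 reads, a log2 ratio of 2.06 (1.86 to 2.25, FDR 3.63e-117). DDIT4L, the paralog of DDIT4 also called REDD2, had 742 against 329 reads, a log2 ratio of 1.20 (1.02 to 1.39, FDR 1.08e-37), a call lost after rescaling. The third was an Ensembl entry of RPTOR, a subunit of mTORC1, with 42 against 9 reads (log2 ratio 2.25), named after its values were seen. The other RPTOR entry had more reads, 86 against 49, and was not called at a log2 ratio of 0.84. The kinase MTOR, with 491 against 264 reads, and its activator RHEB, with 760 against 444 reads, were not called at log2 ratios of 0.93 and 0.81. SESN1, DDIT4L, MTOR and RHEB were thus above the median of all entries, 0.360. Of these, MTOR and its activator RHEB are not parts of the brake. SESN2, at 1.96, and both TSC1 entries also lay above that median, on 10 reads or fewer in the normal library. TSC2 and SESN3, the lowest entries of the list, did not. SESN2, TSC1, TSC2 and SESN3 were named after their values were seen. TSC2, through which DDIT4 acts, lay at 0.357, and at −0.003 after rescaling. SESN3, with under 10 reads in the abnormal library, lay at −1.35 (−2.78 to 0.08). With the length correction, the log2 ratio of MTOR fell to 0.23 and that of TSC2 to −0.35, while SESN1 and DDIT4L stayed at 1.65 and 1.17. DDIT4L stood above DDIT4 in both libraries: the RPKM ratio of DDIT4 to DDIT4L was 0.407 in the abnormal against 0.536 in the normal library, a log2 difference of −0.40 (−0.68 to −0.12).

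Glycolytic HIF targets had 6 of 19 entries called higher and 1 lower, with a median of 0.64. HK2, the muscle hexokinase, had the highest log2 ratio of the 107 entries among those with at least 10 reads in both libraries, 4.07 (3.49 to 4.65, FDR 4.89e-91) from 411 against 25 reads. PPP1R3C, which targets a phosphatase to glycogen, had 577 against 147 reads, with a 95% interval of the log2 ratio of 1.74 to 2.26 (FDR 2.74e-61). GPI, the second enzyme of glycolysis, was called on its Ensembl entry with 176 against 50 reads (log2 ratio 1.85), though this gene also has 2 entries and 18.78% and 13.99% of that one were covered. Its Entrez entry was called too, with 339 against 120 reads (log2 ratio 1.53), so that GPI counts as 2 of the 6 calls. GAPDH and TPI1, later enzymes with 105365 against 92805 and 15310 against 12803 reads, had log2 ratios of 0.21 and 0.29, which were −0.15 and −0.0706 after rescaling. CA9, a carbonic anhydrase and a widely used HIF-1 target, was called lower, with 105 against 324 reads, 11.0 against 33.1 RPKM and a log2 ratio of −1.59 (−1.91 to −1.28, FDR 6.72e-25). HK2 was called higher and CA9 lower both before and after rescaling.

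Among 22 entries of other HIF targets, 6 were called higher and 0 lower, with a median of 0.77. KLHL24, an adaptor of a ubiquitin ligase, had 178 against 34 reads, a log2 ratio of 2.42 (1.89 to 2.95, FDR 4.17e-24). BHLHE40, a transcriptional repressor that is also a clock gene, had 598 against 165 reads and 1.89 (1.64 to 2.14, FDR 1.01e-58). ERO1L, an oxidase of protein folding, had 52 against 16 reads and 1.73 (FDR 4.95e-05), and MXI1, an antagonist of MYC, 87 against 36 reads and 1.30 (FDR 1.57e-05), both lost after rescaling. The lipid droplet protein PLIN2, with 670 against 685 reads or 56.8 against 56.9 RPKM, and the collagen hydroxylase PLOD1, with 430 against 467 reads and a log2 ratio of −0.09, were not called.

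**Figure D4:**
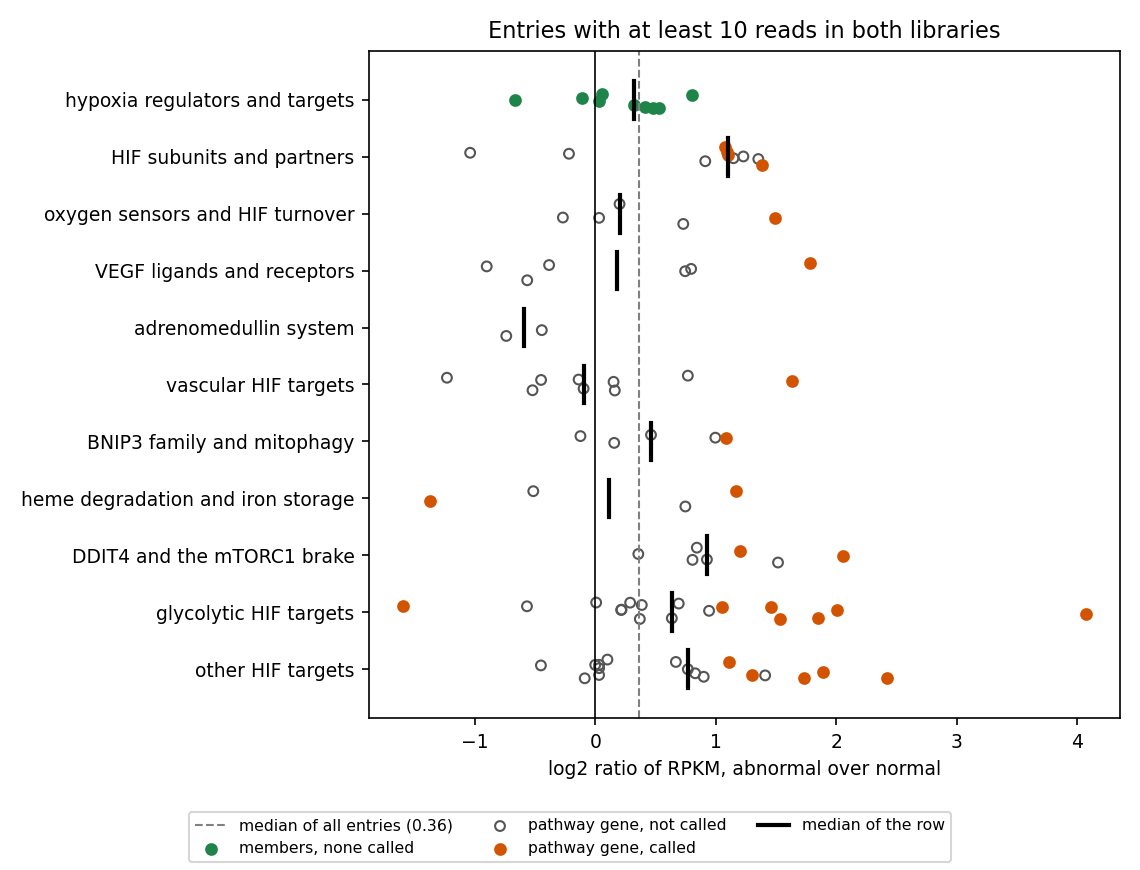
RPKM ratio (log2, abnormal over normal) of each entry with at least 10 reads in both libraries, by list; green points are the 9 hypoxia regulators and targets, orange points called and open points uncalled pathway genes, black bars the row medians and the dashed line the median of all entries, 0.36. The 9 entries center on 0.32 with none called, HIF partners center on 1.10, and HK2 (4.07) and CA9 (−1.59) mark the ends of the glycolytic row.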

How the data were processed

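With SOAPaligner/soap2 and up to 2 mismatches, the authors mapped filtered reads against the transcripts of Sscrofa9. They deposited per library the count of unique reads, the RPKM and the percent of each transcript covered; how coverage was computed is not given in the sources used here. The preparation as described does not mark strand, so that reads of a gene and of an antisense partner cannot be told apart. An entry missing from a library was taken as 0 reads, and an RPKM of 0 was set to 0.001 for log2 ratios. Recomputing RPKM from the counts gave the deposited values within a relative difference of 3.35e-08.

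The members and lists were chosen with earlier results of these data known. Entries were matched by deposited or RefSeq symbol, and, added after the tables were opened, by Ensembl symbol and deposited description. Named were every member and, in each list, at most 4 called entries with at least 10 reads in each library and the 2 uncalled entries with the most reads; marker lists are given as sums, with GAPDH. The log2 ratio, the Audic-Claverie test and Benjamini-Hochberg adjustment over 12535 entries were computed with Python 3.11.15, numpy 2.4.6, pandas 2.3.3 and scipy 1.17.1, plotted with matplotlib 3.10.9, and checked on simulated data. No p-value is given below 1e-300. Alternatives were scaling by the median ratio, TMM (edgeR 4.0.16, R 4.3.3), totals without mitochondrial transcripts or GAPDH, the exact test of Fisher, that of edgeR under a variation assumed at 0.4 or 0.2, a minimum of 10 reads, a pseudocount of 1, the FDR alone and, added after the data were seen, a length correction by the running median over 501 entries and summed entries of a gene. Sequences and the study's methylation data were not used here. The summed RPKM of the remaining markers, abnormal against normal, was 15.9 and 20.9 for macrophages, 2.24 and 2.83 for neutrophils, 3005 and 3358 for fibroblasts, 347 and 389 for smooth muscle, 0.381 and 0 (3 reads and 0) for adipocytes and 31.3 and 19.6 for Schwann cells.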

Additional observations from a re-analysis of the deposited data

How the results depend on the processing

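No paired analysis was possible because each group has 1 library, and none could be left out. With another scaling every log2 ratio shifted by −0.36 with the median ratio, −0.39 with TMM, −0.25 without mitochondrial transcripts and −0.21 with GAPDH. Of the 12 members, 1 (DDIT4) became called higher with the FDR alone and 1 (VEGFB) lower with the median ratio, TMM, the FDR alone or the length correction. The members' median of 0.32 became −0.0396, −0.0733, 0.0727 and 0.11 under the 4 scalings in that order and −0.0473 with the length correction. Over all entries, 1510 calls higher became 812, 751 and 987 under the median ratio, TMM and totals without mitochondrial transcripts, 2324 with the FDR alone, 764 with the length correction, and 2 and 243 with edgeR's assumed variation of 0.4 and 0.2. The 182 calls lower became 498, 548, 369 and 337 under the 4 scalings, 583, 460, and 1 and 20 under the rest. In the pathway lists 26 calls higher became 15, 14, 17 and 17, then 42, 15, and 0 and 6; 2 calls lower became 4 with the median ratio or TMM, 5 with the FDR alone and 0 with either edgeR setting. The pathway median of 0.71 became 0.35, 0.32, 0.46 and 0.50 under the scalings, 0.56 with the pseudocount and 0.19 with the length correction.

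Directions reversed near 0. EGLN1 went to −0.0396 (median ratio) and −0.0733 (TMM). EGLN2 went to −0.30, −0.34, −0.19 and −0.16 under the 4 scalings and −0.34 with the length correction. The HIF1A Entrez entry, the VEGFA Ensembl entry and OS9 each went to −0.33, −0.36, −0.22 and −0.18, and with the length correction to −0.47, −0.29 and −0.38. HIF1A went to −0.78 with its entries added, and the EPAS1 Ensembl entry to −0.0473 with the length correction. CXCL12 went to −0.20, −0.23, −0.0857 and −0.0525, TPI1 to −0.0706 and −0.10, and GAPDH to −0.15, −0.18 and −0.0332. Each of the 4 scalings lowered every log2 ratio by the same amount, so that a ratio between 0 and that amount changed sign. Which scaling suits these libraries best was not tested. The number of unique reads limits the entries of HIF1A, EPAS1 and VEGFA, whose intervals, where given, include 0. The parts of depth and of the double listing in these counts were not tested.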

Other observations

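Low coverage was also seen in glycolytic HIF targets with many reads, which were picked after their values were seen. LDHA, the lactate dehydrogenase subunit of fast muscle, had 5973 abnormal and 2937 normal reads, yet 18.81% and 16.09% of the transcript was covered, although no other entry shared its Ensembl gene. LDHA was called higher at a log2 ratio of 1.06, a call lost after rescaling. PGK1, which has 2 entries, had 37.69% and 37.57% covered on the entry with 3457 and 2704 reads. Of 2597 other entries alone in their gene with over 100 reads per kb in the abnormal library, 74 had under 40% covered.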
